A study of Drosophila melanogaster with 4 samples.

Results

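The 10 genes described here encode the main proteins of the basement membrane that sheathes the central nervous system of the fly larva, the neural lamella. They were taken by name from a list (vkg, Col4a1, trol, Ndg, LanA, LanB1, LanB2, wb, SPARC and Ppn), and all 10 were found by NCBI gene number among the 13997 genes listed in at least 1 of 4 libraries. The study sequenced RNA from dissected Drosophila melanogaster larval nervous systems at 96 hours after egg laying, in pools of 70 to 100 nervous systems per sample. The labels call 2 samples reprogrammed, and in these repo-Gal4 drove constitutively activated Egfr, a receptor tyrosine kinase, together with constitutively activated PI3K92E, the catalytic subunit of phosphoinositide 3-kinase. In the 2 control samples the same driver expressed the red fluorescent protein mRFP. All 4 samples thus carry repo-Gal4, which directs expression to glia. No label says whether the pools of a group came from separate crosses, so the p-values measure the spread between pooled samples, which may be technical.

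A basement membrane is a thin sheet of secreted protein on the outer face of a tissue. Laminins, trimers of an alpha, a beta and a gamma chain, form a first network on the cell surface. Collagen IV, a triple helix of Col4a1 and vkg chains in the fly, forms a second network that gives the sheet its strength. Perlecan, encoded by trol, is a large heparan sulfate proteoglycan of the same sheet, and nidogen, encoded by Ndg, binds both networks. SPARC is a secreted calcium-binding glycoprotein that binds collagen. In the larva, fat body and blood cells secrete much of the collagen IV that ends up on other organs, and perineurial glia lie directly beneath the neural lamella.

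The values are FPKM, read fragments scaled to transcript length and to the mapped total, as the authors deposited them, so levels of different genes can be compared per length. At 1 FPKM a transcript of 1 kilobase stood on 10.8 to 11.9 reads, depending on the library. Each change is the reprogrammed minus the control mean of log2(FPKM + 1), a scale that makes changes of low genes look smaller, with limma's standard error (SE) and Benjamini-Hochberg adjusted p over 9851 genes that reached 1 FPKM in at least 2 libraries. A gene is called when that adjusted p is under 0.05, two-sided, with 2 libraries per group. As a check of the labels, Egfr read 58.9 and 49.3 FPKM in the reprogrammed libraries and 8.60 and 11.4 FPKM in the controls, and Pi3K92E averaged 270.0 ± 24.6 FPKM in reprogrammed and 12.7 ± 6.24 FPKM in control libraries (SD, n = 2 each). Transcripts of the transgenes and of the endogenous genes are not separated. Neuronal markers showed that the tissue was nervous system, with Appl at 23.4 and 30.5 FPKM in reprogrammed and 163 and 132 FPKM in control libraries. The groups differ in genotype as a whole, and in these bulk samples fewer cells of a type and less RNA per cell cannot be told apart.

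SPARC and trol rose in the reprogrammed nervous systems, and none of the other 7 tested basement membrane genes passed the test. SPARC averaged 6.28 times its control level and trol 3.16 times. Both collagen IV chains, the alpha and gamma laminin chains and Ppn read lower in both reprogrammed libraries than in either control, without passing the test. Levels lower without overlap were seen in these 6 of the 9 tested members and in 40.8% of all tested genes. Ndg was near the limit of detection and was not tested. Thus 2 of the 9 tested members were higher, against 4.11% of all tested genes, and 0 were lower in limma, against 8.13%. At an unadjusted p under 0.05, 1 member, Col4a1, was lower.

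**Figure D1:**
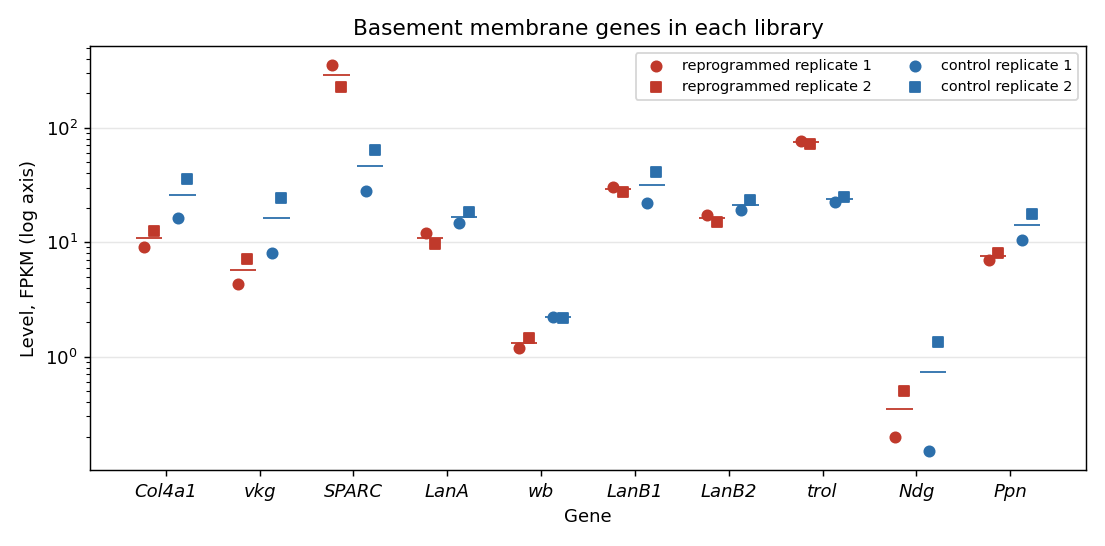
Level of each basement membrane gene in FPKM on a log axis, in the reprogrammed libraries (red, left of each pair) and the control libraries (blue, right). Circles are replicate 1, squares replicate 2, and the short lines are group means of 2 libraries. SPARC and trol stand higher in both reprogrammed libraries, and the control circles and squares lie far apart for vkg, Col4a1, SPARC and Ndg.

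The collagen IV chains read lower in both reprogrammed libraries than in either control and were not called. Col4a1 (NCBI gene 33727), the alpha 1 chain, read 9.02 and 12.6 FPKM in reprogrammed replicates 1 and 2, and 16.3 and 35.4 FPKM in control replicates 1 and 2. The groups did not overlap, yet control replicate 2 stood at 2.18 times control replicate 1. The change was −1.10 ± 0.45 (SE; 95% interval −2.21 to 0.0; limma adjusted p = 0.146). The alpha 2 chain gene vkg (NCBI gene 33726) read 4.34 and 7.15 FPKM in the reprogrammed libraries and 8.0 and 24.6 FPKM in the controls. The reprogrammed libraries were again the lower ones, and control replicate 2 held 3.07 times the level of control replicate 1. The change of vkg was −1.20 ± 0.57 (SE; 95% interval −2.61 to 0.21; limma adjusted p = 0.200). Without control replicate 1 both chains were called lower, by −1.64 for Col4a1 (limma adjusted p = 0.0210) and −1.95 for vkg (0.0218). Without control replicate 2 the changes were −0.57 for Col4a1 (limma adjusted p = 0.182) and −0.45 for vkg (0.356), so their size depended on that library.

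These genes are neighbours in the RefSeq annotation, with no gene between, and the ratio of its chains was alike in both groups. Within each library vkg stood at 0.481 and 0.569 times the FPKM of Col4a1 in the reprogrammed and at 0.492 and 0.695 times in the control libraries. These ratios, which do not depend on how libraries are scaled, overlapped between the groups. Likeness to Col4a1 was measured as the root mean square distance between centred log2 profiles over the 4 libraries. By this measure vkg ranked 290 of 9850 genes, at a distance of 0.171, and Ppn ranked 611. The nearest profiles were those of asRNA:CR46251 at a distance of 0.025, MED15, CG10321, Gyc89Db and RanGAP. SPARC ranked 9637 and trol 9298, among the least alike.

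SPARC (NCBI gene 43230) was the most abundant member in every library. It read 352 and 227 FPKM in reprogrammed replicates 1 and 2, and 28.1 and 64.1 FPKM in control replicates 1 and 2. The lowest reprogrammed value was above the highest control value, although the replicates of each group differed, by 2.29 times between the controls. The change was 2.71 ± 0.46 (SE; limma adjusted p = 0.0350), and 1.30% of the tested genes had an increase at least as large. The call was kept without any single library, with changes from 2.12 to 3.29. SPARC transcripts per length outnumbered those of Col4a1 by 39.0 and 18.1 times in the reprogrammed libraries, and by 1.73 and 1.81 times in the controls. The ratio of SPARC to Col4a1 was therefore alike in both controls and far larger in both reprogrammed libraries. Their longest transcripts differ, at 1143 bases for SPARC and 6101 for Col4a1. With the trend of change on transcript length removed, as described below, SPARC changed by 2.65 and Col4a1 by −0.21, against 2.71 and −1.10.

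None of the 4 laminin genes passed the test in limma, and 0 did at an unadjusted p under 0.05. The fly has a single beta chain, LanB1, and a single gamma chain, LanB2, which assemble with either of the alpha chains LanA and wb (wing blister). LanB1 (NCBI gene 34068) read 30.5 and 27.7 FPKM in the reprogrammed and 22.1 and 41.1 FPKM in the control libraries. Its groups overlapped, with the controls lying on either side of the reprogrammed values (change −0.05 ± 0.37 SE; 95% interval −0.96 to 0.86; limma adjusted p = 0.938). LanB2 (NCBI gene 39118) read 17.3 and 15.0 FPKM in the reprogrammed and 18.9 and 23.3 FPKM in the control libraries. The reprogrammed values were the lower ones by a small margin (−0.36 ± 0.30 SE; 95% interval −1.09 to 0.37; limma adjusted p = 0.442).

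Both alpha chains read lower in the reprogrammed libraries, as LanB2 did, and were not called. LanA (NCBI gene 38723), the major alpha chain here, read 12.1 and 9.55 FPKM in the reprogrammed and 14.6 and 18.5 FPKM in the control libraries. Its groups did not overlap, and the change was −0.57 ± 0.32 (SE; 95% interval −1.36 to 0.22; limma adjusted p = 0.266). The second alpha chain gene, wb (NCBI gene 43946), was the lowest laminin gene, at 1.18 and 1.45 FPKM in the reprogrammed and 2.23 and 2.16 FPKM in the control libraries. These values stand on about 144 to 291 reads per library, and the change was −0.47 ± 0.30 (SE; 95% interval −1.21 to 0.27; limma adjusted p = 0.325). In the annotation 4 other genes overlap wb, and without strand their reads cannot be told apart from its own. Of these only CG32971 was listed in any library, on about 9 and 2 reads in the reprogrammed and 8 and 2 reads in the control libraries. LanA stood at 10.2 and 6.59 times wb in the reprogrammed and at 6.54 and 8.57 times in the control libraries, an overlapping range. Summed alpha chains stood at 0.766 and 0.731 times LanB2 in the reprogrammed and at 0.888 and 0.889 times in the control libraries, which did not overlap.

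Perlecan transcripts rose in the reprogrammed nervous systems. The gene trol (NCBI gene 45320), named for the reduced optic lobes of its mutants, read 77.0 and 72.7 FPKM in the reprogrammed and 22.38 and 24.98 FPKM in the control libraries. Both pairs of replicates lay close together and the groups were far apart. A microRNA gene, mir-4955, overlaps trol in the annotation. The change was 1.62 ± 0.26 (SE; limma adjusted p = 0.0339), and 3.98% of the tested genes had an increase at least as large. The call was lost without reprogrammed replicate 1 (change 1.58) or 2 (change 1.66). In these fits the spread came from the control pair, fitted over all genes in place of that of trol itself. Per length, trol stood at 4.45 and 4.84 times LanB2 in the reprogrammed and at 1.18 and 1.07 times in the control libraries. It stood at 8.54 and 5.79 times Col4a1 in the reprogrammed and at 1.38 and 0.706 times in the control libraries.

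The remaining members are a linker and a proteoglycan-like protein. Ppn (NCBI gene 43872) encodes papilin, a large secreted glycoprotein of basement membranes. It read 7.05 and 8.0 FPKM in the reprogrammed and 10.5 and 17.8 FPKM in the control libraries. The reprogrammed values were lower without overlap (−0.79 ± 0.37 SE; 95% interval −1.70 to 0.13; limma adjusted p = 0.197), and without control replicate 1 Ppn was called lower (−1.14, limma adjusted p = 0.0241). Ndg (NCBI gene 36089) read 0.20 and 0.50 FPKM in the reprogrammed and 0.15 and 1.33 FPKM in the control libraries. That is about 10 and 26 reads in the reprogrammed and 8 and 76 reads in the control libraries. The controls differed by 8.87 times and span the reprogrammed values, so no difference between the groups could be read. CG34222 overlaps Ndg in the annotation and stands on about 4 and 0 reads in the reprogrammed and 0 and 4 reads in the control libraries.

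**Figure D2:**
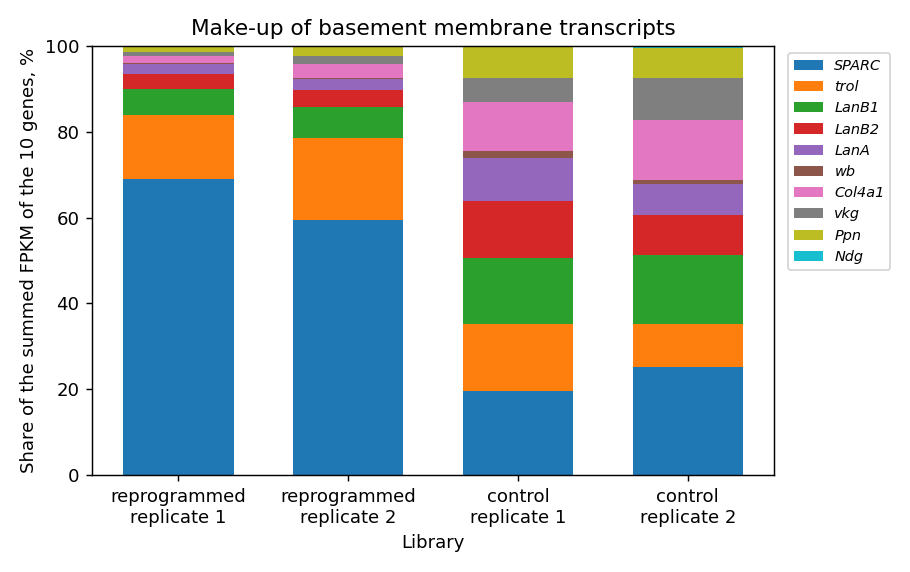
Share of each gene in the summed FPKM of the 10 basement membrane genes, in percent, for each library, reprogrammed libraries on the left. SPARC takes 68.9% and 59.5% of the sum in the reprogrammed libraries and 19.6% and 25.3% in the controls, while both collagen IV chains take smaller shares in the reprogrammed bars.

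The make-up of the basement membrane transcripts differed between the groups, with SPARC the main contributor in the reprogrammed libraries. The 10 genes summed to 510.4 and 381.8 FPKM in the reprogrammed libraries and to 143.1 and 253.1 FPKM in the controls. Without SPARC and trol the sums were 81.7 and 82.0 FPKM in the reprogrammed and 92.7 and 164 FPKM in the control libraries. Col4a1 made up 1.77% and 3.29% of the 10-gene sum in the reprogrammed and 11.4% and 14.0% in the control libraries. The share of vkg was 0.85% and 1.87% in the reprogrammed and 5.59% and 9.71% in the control libraries. The share of trol, from 15.1% to 19.0% in the reprogrammed and from 9.87% to 15.6% in the control libraries, overlapped. A share of a sum falls when another member rises, so these shares do not show that a gene's own level fell.

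Transcript length bears on these values. All tested members but SPARC fall in the eighth of genes with the longest transcripts, at 4861 bases or more, and the median change of that eighth was −0.96, against −0.25 for all tested genes. The longest annotated transcripts measure 14232 bases for trol and 1143 bases for SPARC. The changes of Col4a1 and vkg lay near the middle of their eighth, with 41.5% and 35.6% of its 1230 genes lower. LanB1 had 88.2% of that eighth below it, LanB2 79.6%, wb 76.6%, LanA 71.8% and Ppn 61.0%. The rise of trol was the 8th largest of the eighth, and that of SPARC was the 18th largest among the 1231 genes of its own length class. With the trend on length removed, trol changed by 2.85 (limma adjusted p = 0.0183) and SPARC by 2.65 (0.0330), the collagen chains by −0.21 for Col4a1 (0.760) and −0.28 for vkg (0.756). With that trend removed the uncalled changes of LanA, LanB1, LanB2, wb and Ppn turned positive, at 0.60, 0.86, 0.52, 0.69 and 0.31, and none passed the test. What part of the length trend is technical was not tested.

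**Figure D3:**
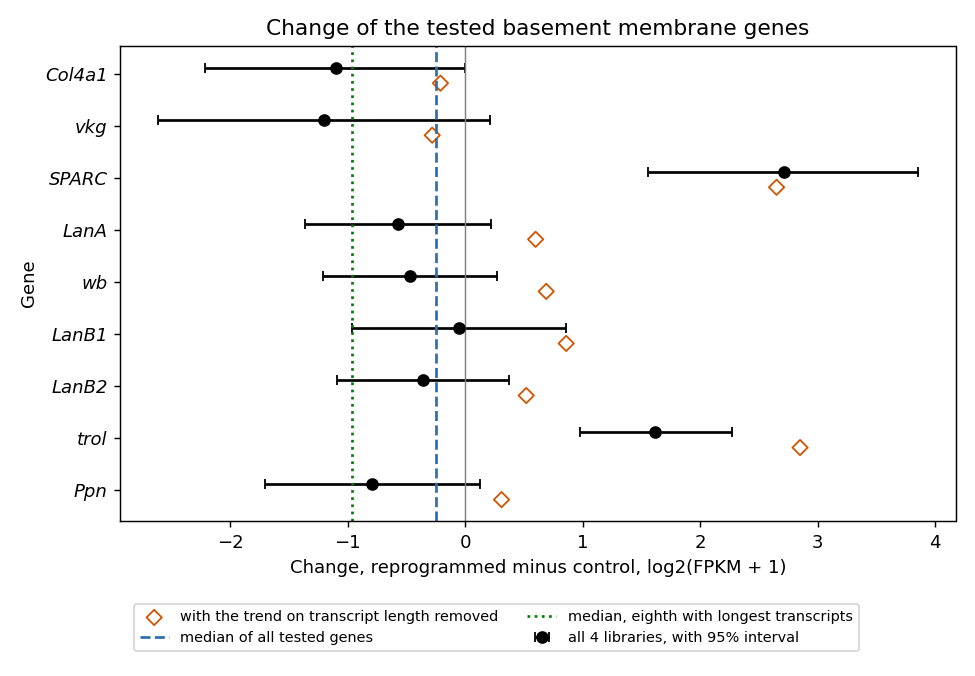
Change of the 9 tested basement membrane genes, reprogrammed minus control on log2(FPKM + 1), with its 95% interval from limma (black), and the change with the length trend removed (orange diamonds). The dashed line is the median of all tested genes (−0.25) and the dotted line that of the eighth with the longest transcripts (−0.96). SPARC and trol stand to the right under both, the interval of Col4a1 ends at 0.0 and those of the other 6 cross it.

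The median change of all tested genes depended on the scaling. It was −0.25 as deposited, 0.06 when libraries were set to equal medians, −0.49 at equal FPKM totals and −0.04 with quantile-normalized values. Relative to the median of −0.25, SPARC changed by 2.95, trol by 1.87, Col4a1 by −0.86, vkg by −0.96, Ppn by −0.54, LanA by −0.33, wb by −0.22, LanB2 by −0.11 and LanB1 by 0.20. LanB1 was positive at equal medians (0.28) and with quantile-normalized values (0.02), and the other 8 kept their sign under these 3 scalings. The median change of the 9 members was −0.47. The groups did not overlap for 6 members that were lower, of 9 tested, against 40.8% of all tested genes, and for 2 that were higher, against 22.6%.

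The control replicates differed in most members, and so they did in markers of tissues that can adhere to a dissected nervous system. Control replicate 2 was the higher one for 9 of the 10 members, all but wb, against 64.8% of all tested genes. Reprogrammed replicate 2 was above reprogrammed replicate 1 for 5 of the 10, against 61.6% of all tested genes. Of the 9 fat body genes, 7 had the higher level of the reprogrammed pair in replicate 2, and 8 had the higher level of the control pair in replicate 2. Of the 15 muscle genes, replicate 2 was the higher one for 14 in the reprogrammed pair and for 13 in the control pair. The fat body list summed to 111.3 and 556.8 FPKM in the reprogrammed and 262.6 and 1451 FPKM in the control libraries, with no gene of the list at 0. The storage protein gene Lsp1beta, which had the highest mean of the list through control replicate 2 alone, read 1.15 and 45.9 FPKM in the reprogrammed and 14.3 and 801 FPKM in the control libraries. Lsp2 read 2.76 and 302 FPKM in the reprogrammed and 126 and 200 FPKM in the control libraries, and Lsp1gamma 1.05 and 46.1 FPKM in the reprogrammed and 7.82 and 139 FPKM in the control libraries. Of the fat body genes 1, Fbp1, was called lower, against 8.13% of all tested genes, and 8 were not called.

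The muscle list summed to 111.9 and 304.2 FPKM in the reprogrammed and 229.1 and 868.3 FPKM in the control libraries. In limma 0 of its 13 tested genes were called, against 12.2% of all tested genes in either direction. At an unadjusted p under 0.05, 0 muscle genes were higher and 1 lower. Act88F was listed at 0 in 1 library. Its most abundant genes were Mf, Act57B and Mlc1, with Act57B at 13.2 and 58.5 FPKM in the reprogrammed and 37.9 and 222 FPKM in the control libraries. Mf read 43.8 and 87.0 FPKM in the reprogrammed and 85.1 and 203 FPKM in the control libraries, and Mlc1 11.2 and 50.4 FPKM in the reprogrammed and 27.8 and 101 FPKM in the control libraries. The summed fat body and muscle levels were lowest in reprogrammed replicate 1 and highest in control replicate 2, as were Col4a1 and vkg. Between these ends the order differed. Both sums were higher in reprogrammed replicate 2 than in control replicate 1, while Col4a1 and vkg were lower there. The Lsp storage protein genes alone summed to 6.0 and 413.4 FPKM in the reprogrammed and 156.0 and 1254 FPKM in the control libraries. The fat body genes apolpp, Mtp and ppl, chosen after their values were seen, were instead lowest in control replicate 1. Of these, apolpp read 59.7 and 40.3 FPKM in the reprogrammed and 15.4 and 70.4 FPKM in the control libraries. The part of fat body and muscle in the collagen values was not tested.

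Blood cell genes gave no single direction. Of 11 hemocyte markers 1 was called lower, against 8.13% of all tested genes, and 10 were not called. The lower one was srp, a GATA factor also used in fat body. The hemocyte list summed to 436.7 and 629.6 FPKM in the reprogrammed and 799.5 and 437.9 FPKM in the control libraries, with no gene at 0. He, at 289 and 412 FPKM in the reprogrammed and 671 and 236 FPKM in the control libraries, made up most of it. Without He the sums were 147.9 and 217.1 FPKM in the reprogrammed and 128.7 and 202.1 FPKM in the control libraries. Hml, the hemocyte gene hemolectin, which was chosen for mention after its values were seen, ordered the libraries as Col4a1 did, at 1.15 and 2.04 FPKM in the reprogrammed and 3.06 and 5.64 FPKM in the control libraries. The scavenger receptor gene crq read 65.3 and 50.9 FPKM in the reprogrammed and 26.3 and 35.3 FPKM in the control libraries, and PPO1, a crystal cell gene, 14.6 and 55.3 FPKM in the reprogrammed and 25.1 and 49.9 FPKM in the control libraries. The part of blood cells in the basement membrane values was not tested.

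Some genes of the surface glia rose. Among 9 subperineurial glia genes 4 were called higher, moody, Mdr65, Gli and loco, against 4.11% of all tested genes, and 5 were not called. Of these 5, Lac, sinu and cora read higher and Nrx-IV and Cont lower in both reprogrammed libraries than in either control. Groups that did not overlap were seen in 22.6% of all tested genes toward higher and in 40.8% toward lower levels. The list summed to 1460 and 1282 FPKM in the reprogrammed and 582.5 and 562.3 FPKM in the control libraries. Among the uncalled genes, Lac stood at 526 and 453 FPKM in the reprogrammed and 279 and 209 FPKM in the control libraries and sinu at 152 and 140.1 FPKM in the reprogrammed and 102 and 81.2 FPKM in the control libraries. Of the pair that read lower, both chosen after their values were seen, Nrx-IV stood at 21.4 and 22.2 FPKM in the reprogrammed and 38.6 and 39.2 FPKM in the control libraries (limma adjusted p = 0.0929), and Cont at 35.7 and 34.3 FPKM in the reprogrammed and 38.6 and 52.5 FPKM in the control libraries (0.436). Mdr65, a transporter of the blood-brain barrier, read 238 and 184 FPKM in the reprogrammed and 15.1 and 33.4 FPKM in the control libraries. The 4 perineurial glia genes summed to 125.7 and 97.0 FPKM in the reprogrammed and 23.5 and 59.3 FPKM in the control libraries. None of the 4 was called in limma, and 2 were higher at an unadjusted p under 0.05, which 3358 of 9851 tested genes reached in either direction. All 4 read higher in both reprogrammed libraries than in either control, against 22.6% of all tested genes. Indy, a citrate transporter gene, read 70.9 and 39.2 FPKM in the reprogrammed and 11.1 and 24.0 FPKM in the control libraries, and the sugar transporter gene Tret1-1 26.9 and 21.3 FPKM in the reprogrammed and 4.04 and 19.1 FPKM in the control libraries. The third, pippin, read 17.4 and 21.5 FPKM in the reprogrammed and 3.95 and 8.09 FPKM in the control libraries. No surface glia gene was at 0 in any library. Their part in the levels of SPARC and trol was not tested.

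Most neuronal and some tracheal genes fell, and no ring gland gene was called. Of the 8 neuronal genes 7 were called lower, against 8.13% of all tested genes, and 1 was not called. The list summed to 98.1 and 137.3 FPKM in the reprogrammed and 536.2 and 479.1 FPKM in the control libraries. The pan-neuronal gene elav read 24.9 and 33.3 FPKM in the reprogrammed and 125 and 84.5 FPKM in the control libraries, and the synaptotagmin gene Syt1 21.4 and 32.8 FPKM in the reprogrammed and 109 and 87.4 FPKM in the control libraries. Of the 8 tracheal genes trh, Gasp and obst-A were called lower, against the same 8.13%, and 5 were not called. The tracheal list summed to 81.9 and 101.9 FPKM in the reprogrammed and 265.1 and 396.0 FPKM in the control libraries. Gasp read 30.3 and 40.4 FPKM in the reprogrammed and 82.8 and 110 FPKM in the control libraries, obst-A 16.2 and 18.9 FPKM in the reprogrammed and 94.7 and 65.9 FPKM in the control libraries, and the uncalled verm 21.5 and 25.8 FPKM in the reprogrammed and 45.1 and 108 FPKM in the control libraries. The 4 ring gland genes found summed to 419.7 and 350.7 FPKM in the reprogrammed and 950.8 and 389.8 FPKM in the control libraries. In limma 0 of them were called, against 12.2% of all tested genes in either direction (0 at an unadjusted p under 0.05). The ecdysone synthesis genes were led by spok, at 280 and 235 FPKM in the reprogrammed and 675 and 248 FPKM in the control libraries, followed by sad, at 79.1 and 64.4 FPKM in the reprogrammed and 143 and 99.3 FPKM in the control libraries, and nvd, at 47.1 and 41.5 FPKM in the reprogrammed and 99.5 and 25.3 FPKM in the control libraries.

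**Figure D4:**
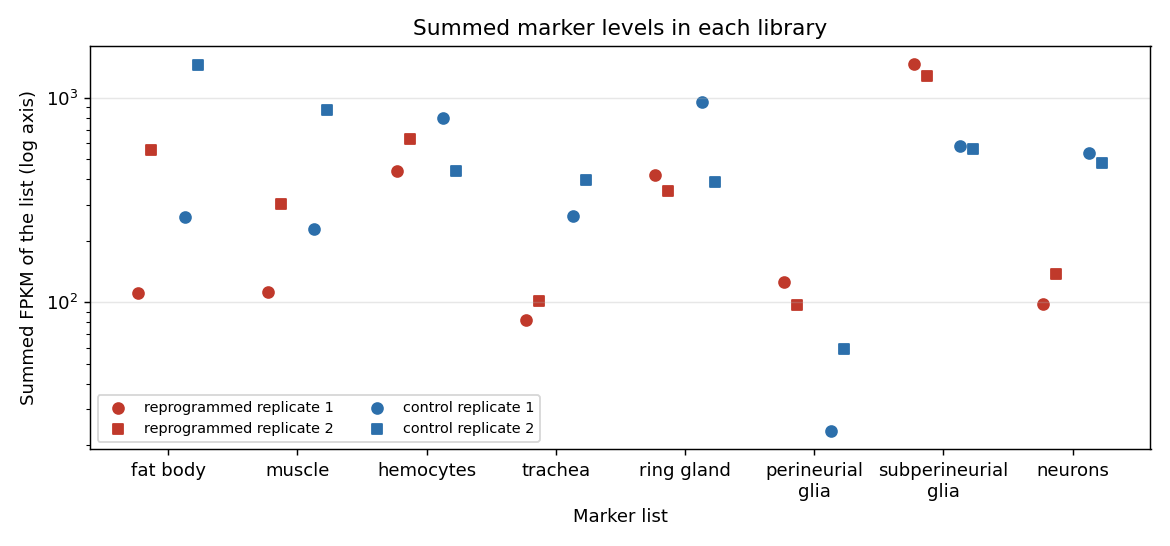
Summed FPKM of each marker list on a log axis, in the reprogrammed libraries (red, left) and the control libraries (blue, right), with circles for replicate 1 and squares for replicate 2. The fat body and muscle sums are highest in control replicate 2 and lowest in reprogrammed replicate 1. The sums of both surface glia lists are higher in both reprogrammed libraries.

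No gene on a list of other matrix proteins was called higher. Of 7 genes in this list 6 were tested, with a median change of −0.14. Of these 0 were called higher, against 4.11% of all tested genes, 2 lower, against 8.13%, and 4 were not called. The 2 lower ones were tnc, which encodes tenectin, a matrix protein with an integrin-binding motif, and the spondin gene mspo. The level of tnc was 2.26 and 2.40 FPKM in the reprogrammed and 17.7 and 15.6 FPKM in the control libraries (−2.40 ± 0.31 SE; limma adjusted p = 0.0308), and its call was lost without either reprogrammed library (0.105 and 0.0575). The level of mspo was 8.61 and 10.9 FPKM in the reprogrammed and 25.95 and 35.05 FPKM in the control libraries (−1.54 ± 0.32 SE; limma adjusted p = 0.0408), a call lost in quantile-normalized values (limma adjusted p = 0.0508), once the length trend was taken out (0.0628) and without either reprogrammed library (0.406 and 0.174). Mp, the fly collagen XV/XVIII gene, averaged 20.4 ± 1.39 FPKM in reprogrammed and 17.4 ± 1.95 FPKM in control libraries (SD, n = 2 each). Pxn, which encodes the peroxidase that cross-links collagen IV and is also used by blood cells, averaged 9.78 ± 3.23 FPKM in reprogrammed and 14.0 ± 3.37 FPKM in control libraries (SD, n = 2 each).

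Most genes of the machinery that folds and exports collagen did not pass the test. Of 15 genes 12 were tested, with a median change of −0.28. Of these 0 were called higher, against 4.11% of all tested genes, 1 lower, against 8.13%, and 11 were not called. The lower one was PH4alphaMP, a prolyl 4-hydroxylase subunit, at 0.24 and 0.09 FPKM in the reprogrammed and 2.80 and 3.44 FPKM in the control libraries (−1.82 ± 0.30 SE; limma adjusted p = 0.0340), and its call was lost without either reprogrammed library (0.0915 and 0.0992). The protein disulfide isomerase gene Pdi averaged 277 ± 53.3 FPKM in reprogrammed and 387 ± 158 FPKM in control libraries (SD, n = 2 each). Sar1, a GTPase of secretory vesicle budding, averaged 213 ± 3.32 FPKM in reprogrammed and 205 ± 33.7 FPKM in control libraries (SD, n = 2 each). The next 3 genes were chosen for their known roles after their values were seen. Plod, the lysyl hydroxylase of collagen IV, read 14.8 and 19.4 FPKM in the reprogrammed and 12.7 and 32.2 FPKM in the control libraries. Tango1, the cargo receptor for collagen export, read 3.48 and 3.30 FPKM in the reprogrammed and 5.0 and 12.1 FPKM in the control libraries. The prolyl 4-hydroxylase gene PH4alphaEFB read 43.7 and 37.6 FPKM in the reprogrammed and 17.2 and 27.0 FPKM in the control libraries, higher without overlap and not called (limma adjusted p = 0.123). For Plod and Tango1, as for the collagen chains, control replicate 2 was the highest library.

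Among matrix receptors and their cytoplasmic partners, the 3 genes of the Ilk, stck and parvin complex rose together. This complex, of integrin-linked kinase, the LIM protein PINCH (stck) and parvin, ties integrin tails to actin. Ilk read 119 and 119 FPKM in the reprogrammed and 49.1 and 47.0 FPKM in the control libraries (1.29 ± 0.25 SE; limma adjusted p = 0.0385). The level of parvin was 101 and 103 FPKM in the reprogrammed and 39.4 and 42.0 FPKM in the control libraries (1.31 ± 0.25 SE; limma adjusted p = 0.0385), and that of stck 104 and 97.9 FPKM in the reprogrammed and 44.1 and 46.8 FPKM in the control libraries (1.14 ± 0.25 SE; limma adjusted p = 0.0451). Replicates of these 3 genes lay close together in both groups. All 3 calls were lost in quantile-normalized values (limma adjusted p from 0.0527 to 0.0635) and without either reprogrammed library (from 0.262 to 0.489), and the calls of parvin (0.0510) and stck (0.0743) at equal FPKM totals. With the length trend removed stck lost its call (0.0591).

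Of the 22 receptor and adhesion genes 20 were tested, with a median change of −0.06. Of these 3 were called higher, against 4.11% of all tested genes, 1 lower, against 8.13%, and 16 were not called. The lower one was Ddr, named for the discoidin domain receptors that bind collagen in mammals. It read 2.32 and 2.16 FPKM in the reprogrammed and 7.58 and 7.22 FPKM in the control libraries (−1.37 ± 0.31 SE; limma adjusted p = 0.0470). That call was lost with a pseudocount of 0.1 (limma adjusted p = 0.0503), at equal medians (0.0622), in quantile-normalized values (0.124) and once the length trend was taken out (0.213). It was also lost when either reprogrammed library was left out (0.449 and 0.372). Zyx, the zyxin gene, averaged 385 ± 17.8 FPKM in reprogrammed and 407 ± 165 FPKM in control libraries (SD, n = 2 each). The heparan sulfate proteoglycan gene Sdc averaged 220.0 ± 6.43 FPKM in reprogrammed and 275 ± 45.7 FPKM in control libraries (SD, n = 2 each). The next 3 genes were chosen for their roles after their values were seen. The integrin beta chain gene mys read 35.1 and 36.3 FPKM in the reprogrammed and 33.6 and 51.3 FPKM in the control libraries, with overlap. The dystroglycan gene Dg, a laminin and perlecan receptor, read 58.1 and 53.4 FPKM in the reprogrammed and 116 and 88.2 FPKM in the control libraries (limma adjusted p = 0.0933). The integrin alpha chain gene scb read 27.8 and 19.5 FPKM in the reprogrammed and 6.94 and 13.8 FPKM in the control libraries (limma adjusted p = 0.113). Another integrin alpha chain gene, mew, also chosen after its values were seen, went the other way. It read 6.57 and 7.62 FPKM in the reprogrammed and 16.8 and 17.4 FPKM in the control libraries (limma adjusted p = 0.0592).

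Of the enzymes that remodel matrix, stl changed most. This gene encodes a secreted metalloprotease of the ADAMTS family. It read 27.7 and 18.1 FPKM in the reprogrammed and 0.30 and 0.14 FPKM in the control libraries (4.26 ± 0.36 SE; limma adjusted p = 0.0206). Both controls were near the detection limit and both reprogrammed libraries were well above it. Of the 10 remodelling genes 8 were tested, with a median change of 0.50. Of these 1 was called higher, against 4.11% of all tested genes, 0 lower, against 8.13%, and 7 were not called. The matrix metalloproteinase gene Mmp2 read 28.0 and 28.9 FPKM in the reprogrammed and 61.8 and 52.9 FPKM in the control libraries (−0.98 ± 0.26 SE; limma adjusted p = 0.0632). Mmp1 read 48.8 and 36.8 FPKM in the reprogrammed and 20.4 and 35.9 FPKM in the control libraries (0.62 ± 0.37 SE; limma adjusted p = 0.288). Timp, the inhibitor of these proteases, chosen after its values were seen, read 28.6 and 19.4 FPKM in the reprogrammed and 3.48 and 10.8 FPKM in the control libraries (1.76 ± 0.53 SE; limma adjusted p = 0.0780).

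**Figure D5:**
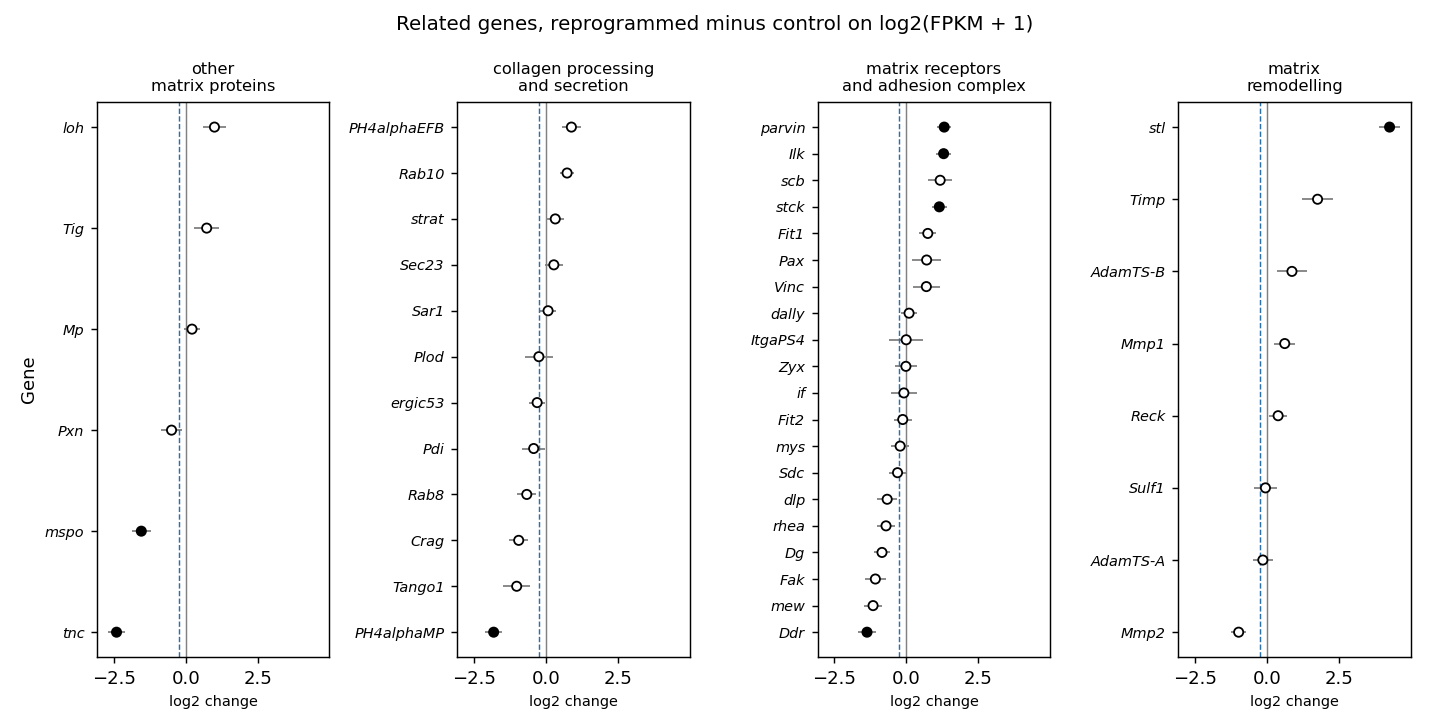
Change of the tested related genes, reprogrammed minus control on log2(FPKM + 1), in 4 lists, with limma's standard error as bars. Filled points passed the test at an adjusted p under 0.05, and the dashed line is the median of all tested genes (−0.25). Ilk, parvin and stck are filled on the right among the receptors and adhesion genes, and stl is filled at 4.26 among the remodelling genes.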

How the data were processed

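RNA from 2 reprogrammed and 2 control pools was selected with oligo(dT) beads and copied from random primers, per the labels' protocols, with no step named that marks strand. The authors deposited 1 table of FPKM values per sample, with 2 decimals, per the file headers. The submitters' processing notes name the aligners Bowtie2 and HISAT. The quantifier, the tool versions and the build were not given in the sources used here, and no coordinates are therefore printed. A gene missing from a table was set to 0. Genes were named from RefSeq, assembly Release 6 plus ISO1 MT. Transcript lengths are the longest transcript in an Ensembl BDGP6 annotation.

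The test was limma (lmFit, eBayes with a trend) on log2(FPKM + 1), with group as the only term, for genes that reached 1 FPKM in 2 or more libraries. It had 2 residual and 3.72 prior degrees of freedom and was first tested on simulated data. The simulation set the spread of both groups from the reprogrammed pair, so it does not cover the wider spread of the controls. The SD of the log2 difference between replicates was 0.59 in the reprogrammed and 0.88 in the control libraries. Depth was read from the spacing of low FPKM values in genes with 1 transcript, of which 93.3% to 96.1% came out as whole reads within 0.15 reads, where evenly spread values would give 30.0%. Depth per gene is therefore approximate, and no count test was run.

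The members and lists were chosen with earlier results of these data known. Named genes were the members, Egfr and Pi3K92E with repo, up to 4 called and 2 uncalled abundant genes of each related list, the 3 most abundant genes of each marker list, and the 5 profiles nearest to Col4a1. Exceptions are said to be so. The marker name phm matched nothing. The repo level was 60.7 and 51.5 FPKM in reprogrammed and 12.4 and 23.7 FPKM in control libraries (limma adjusted p = 0.0474). R 4.3.3, limma 3.58.1, Python 3.11.15, pandas 2.3.3, numpy 2.4.6 and matplotlib 3.10.9 were used.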

Additional observations from a re-analysis of the deposited data

How the results depend on the processing

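Over the 12 alternatives SPARC and trol kept their sign, with changes from 2.12 to 3.29 for SPARC and from 1.36 to 2.85 for trol, and SPARC kept its call in 11 and trol in 9 of them. When low genes were kept, limma called 0 of 13997 genes higher and 0 lower (3629 at an unadjusted p under 0.05), hence 0 members and 0 related genes in either direction, with an adjusted p of 0.0862 for SPARC and 0.0843 for trol. Of all genes, 405 were higher and 801 lower with the settings of the report. The lower genes numbered 439 at equal medians, 1225 at equal FPKM totals, 249 in quantile-normalized values and 278 once the length trend was taken out, where the higher ones numbered 586, 310, 369 and 498. Related genes numbered 4 higher and 4 lower with the settings of the report. They numbered 2 and 7 at equal FPKM totals, 2 and 2 in quantile-normalized values, and 6 and 2 once the length trend was taken out. The members' median change of −0.47 was −0.14 in quantile-normalized values and 0.60 once the length trend was taken out.

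With the replicate number as a block, 872 genes were higher and 1907 lower, and 2 members were lower, vkg (limma adjusted p = 0.0357) and Col4a1 (0.0397). Across all genes the deviations of same-numbered libraries correlated at r = −0.04, and the labels do not say that a number marks a shared batch, so the numbers were not taken as pairs. Summed fat body and muscle genes were nonetheless higher in replicate 2 of both groups. The blocked fit has 1 residual degree of freedom. Its prior degrees of freedom were infinite, as in the fits without a reprogrammed library. In such fits limma used a spread fitted over all genes in place of each gene's own.

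Fits without 1 of the 4 libraries take the spread of the single remaining library from the other pair. The numbers then ranged from 181 to 1265 higher and 75 to 3313 lower genes, from 1 to 2 higher and 0 to 3 lower members, and from 1 to 14 higher and 0 to 15 lower related genes. The highest numbers came without control replicate 1 for higher and lower genes, and without control replicate 2 for the 14.

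Uncalled changes turned sign in these cases, and the cause was not tested. With the length trend removed LanA was 0.60, LanB1 0.86, LanB2 0.52, wb 0.69, Ppn 0.31, Pxn 0.33, Zyx 0.20 and Sdc 0.37. At equal medians LanB1 was 0.28, Zyx 0.32 and Sdc 0.03, at equal FPKM totals Mp was −0.04 and Sar1 −0.21, and in quantile-normalized values LanB1 was 0.02 and Sar1 −0.19. With 1 library left out LanB1 ranged from −0.48 to 0.38, Sar1 from −0.10 to 0.23 and Zyx from −0.44 to 0.40. Ndg was not tested, and its lowest value stands on about 8 reads.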
